A study of Homo sapiens with 13 samples.

Results

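The genes of programmed cell death were followed through mRNA sequencing of hFOB 1.19 cells, a human fetal osteoblast line. They comprised 37 genes of the BCL2 family, the caspases, the inhibitors of apoptosis and the death receptor pathway, out of 43836 genes in the count table. The genes were chosen by symbol, at a time when earlier results of these data were known. All 37 matched 1 Ensembl identifier each, and 36 passed the filter on low counts that left 17092 genes for testing. The gene below it was HRK, which had 2 to 8 reads in each of the 12 libraries. By their usual role 10 members were taken as pro-survival, 24 as pro-death and 3 (RIPK1, TRADD and TNFRSF1A) as able to serve either side.

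The positive controls (PC, 2 libraries) were grown in medium with 10% fetal bovine serum, and the negative controls (NC, 2 libraries) without serum. RES (resveratrol, 3 libraries), POG (peonidin-3-O-glucoside, an anthocyanin, 3 libraries) and DEG (2 libraries) were serum-starved cells given a compound at 1 µg/mL. The labels did not spell out DEG, although their treatment note lists delphinidin-3-glucoside among the compounds. All cells were of 1 immortalized line that carries a temperature-sensitive SV40 large T antigen, and both kinds of control received the solvent DMSO. DEG replicate 3 of the 13 labelled samples was not analysed here. The labels do not say whether replicates were separate cultures, so the p-values measure the spread between these libraries, which may be technical.

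Cells die by apoptosis along 2 routes that meet at the caspases, proteases that dismantle the cell. In the mitochondrial route, BH3-only proteins free BAX and BAK1 from survival proteins such as BCL2, BCL-XL (the product of BCL2L1) and MCL1. The pores then made in the mitochondrion release cytochrome c, which starts caspase 9 on APAF1. In the other route a ligand such as TRAIL (the product of TNFSF10) binds death receptors, and the adaptor FADD gathers caspase 8. Osteoblasts deprived of growth factors are known to die in this way, and the BH3-only genes BCL2L11 and BMF are known to respond to survival signals.

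Of the members, BCL2A1, BMF and BCL2L11 had the largest log2 fold changes with serum among called members. TNFSF10 had the largest among members called with POG or DEG. The DNA upstream of a RefSeq start site of these 4 genes is therefore shown. Each stretch runs from base 250 to base 51 before the RefSeq start site, 5′ to 3′ on the strand of the gene, in GRCh38.p14. They lie at chr2:111120664-111120863 on the plus strand for BCL2L11, and on the minus strand at chr15:40108930-40109129 for BMF, chr15:79971247-79971446 for BCL2A1 and chr3:172523481-172523680 for TNFSF10. BMF has 2 start sites in that table, and the first listed is shown. The BCL2L11 stretch lies inside the span of that gene in GENCODE v44, which begins at chr2:111119378.
BCL2L11: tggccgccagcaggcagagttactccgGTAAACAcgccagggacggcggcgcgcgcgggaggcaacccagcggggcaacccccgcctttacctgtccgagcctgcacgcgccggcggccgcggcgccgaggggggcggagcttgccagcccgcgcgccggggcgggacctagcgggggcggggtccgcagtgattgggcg
BMF: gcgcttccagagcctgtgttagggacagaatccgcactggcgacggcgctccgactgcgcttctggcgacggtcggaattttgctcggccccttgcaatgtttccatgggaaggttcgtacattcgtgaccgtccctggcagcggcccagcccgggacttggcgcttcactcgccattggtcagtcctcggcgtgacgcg
BCL2A1: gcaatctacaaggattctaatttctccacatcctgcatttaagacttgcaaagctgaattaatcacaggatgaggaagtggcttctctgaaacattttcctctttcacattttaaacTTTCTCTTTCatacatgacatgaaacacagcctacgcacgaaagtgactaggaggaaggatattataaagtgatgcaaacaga
TNFSF10: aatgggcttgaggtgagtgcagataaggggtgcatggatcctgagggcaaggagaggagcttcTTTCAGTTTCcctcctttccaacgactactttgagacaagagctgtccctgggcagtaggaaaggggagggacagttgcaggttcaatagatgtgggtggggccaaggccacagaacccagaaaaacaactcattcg
Capitals mark matches, on either strand, to 2 strings that were searched for in the 250 bases before each start site. The first was TGTTTAC, a core read by forkhead factors of the FOXO kind, and the second GAAA followed by any 2 bases and a second GAAA, a core of interferon response elements. The forkhead string was found for BCL2L11, starting 223 bases before the RefSeq start site, and in 2.98% of all 35116 upstream windows. Of the 29 members in the RefSeq table no other held it. The interferon string was found upstream of BCL2A1 (133 bases before the start), TNFSF10 (187 bases before) and RIPK1, and in 3.02% of all windows. Neither string was found in the 250 bases before either start site of BMF. These are matches of letters, and binding was not measured.

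Library totals ran from 38464619 to 51416358 reads, and the members held 0.236% to 0.252% of them. The osteoblast label was checked against 10 markers. COL1A1 stood at 2463 to 2869 CPM, COL1A2 at 1112 to 1420, SPARC at 1019 to 1177 and RUNX2 at 44.3 to 51.6. ALPL was at 3.22 to 6.66 CPM, SPP1 at 0.955 to 2.34, BGLAP at 0.425 to 2.00 and DLX5 at 0.651 to 1.84. SP7 (at most 0.181 CPM) and IBSP (no read in 11 of 12 libraries) were near 0. Markers of blood, endothelial, epithelial and fat cells were at most 2.47 CPM each, and so were SPP1, BGLAP, DLX5, SP7 and IBSP. CPM is a count as a share of the library's reads, per 1000000, here after TMM scaling, a method that sets libraries to a common level. Of the 37 members 21 have an exon that overlaps another gene in GENCODE v44, among them MCL1, BIRC6, CFLAR, FADD, TNFRSF10A and TNFRSF10B. As the strand setting of the counting is not given in the sources used here, reads from overlapping genes on opposite strands may not have been separated. No such overlap was found for TNFSF10, BCL2, BCL2A1, PMAIP1, BID, BAX, CASP2, CASP10, CYCS, BIRC2, TNFRSF1A or TNFRSF10D. In bulk RNA, fewer cells of one kind and less RNA per cell cannot be told apart.

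To compare levels between genes, CPM was divided by the length of the canonical transcript in GENCODE v44. In serum-starved negative controls BAX stood highest, at 135 CPM per kb, followed by MCL1 at 119. TNFRSF1A (75.6), PMAIP1 (72.0) and the TRAIL receptor TNFRSF10B (69.1) came next, and BAD (41.5), BCL2L1 (32.6) and BID (30.8) after them. The other members lay below 25 CPM per kb, and at the low end were TNFSF10 (1.55), BCL2 (0.693), CASP10 (0.579), BIK (0.227) and HRK (0.0176). BCL2, the founding survival gene, was thus at a far lower level than its relatives MCL1 and BCL2L1. Lengths moved this order: over the length of all exons of a gene MCL1 led with 75.4 CPM per kb, and BAX, at 41.4, stood below PMAIP1 (62.5) and TNFRSF10B (55.1) as well.

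**Figure D1:**
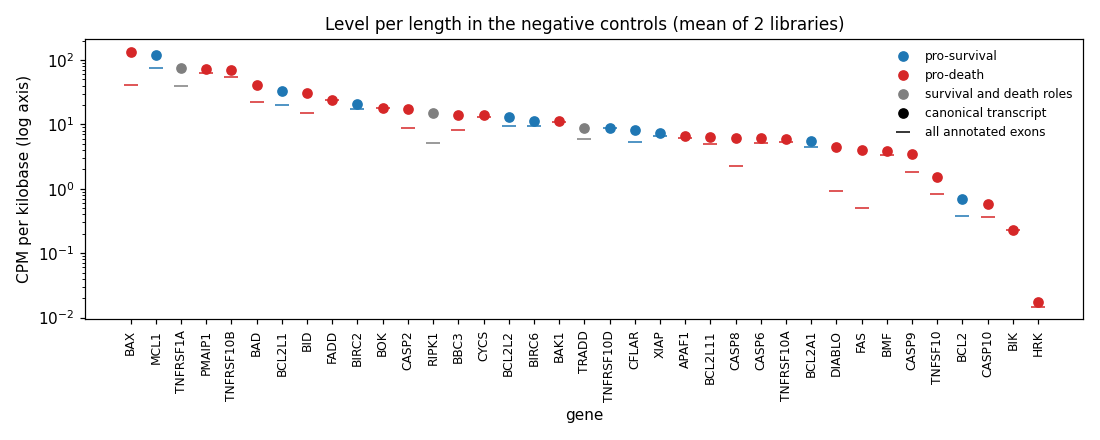
Levels of the 37 members in the negative controls, in CPM per kb of canonical transcript on a log axis. Points are means of the 2 libraries, dashes the same over the length of all annotated exons and colours the side, and members are ordered by level from BAX at 135 to HRK at 0.0176 CPM per kb.

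Serum moved the members most. Between positive and negative controls 22 of 36 members passed edgeR's exact test at a false discovery rate (FDR) below 0.05, 14 higher and 8 lower with serum, where 42.4% of all genes tested were called (21.5% higher and 20.9% lower). BCL2A1 rose and the BH3-only genes BMF and BCL2L11 fell by the largest steps. Members of either side moved both ways: 5 pro-survival members rose and 3 fell, and 8 pro-death members rose and 5 fell. The median log2 fold change was 0.10 over the members and −0.01 over all genes. Scaled by plain library totals, 13 members were higher and 13 lower.

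Resveratrol raised 6 of 36 members against the negative control, where 11.2% of all genes tested were called with 4.94% higher and 6.25% lower. They were the survival gene BCL2L1, the inhibitor BIRC2, the initiator caspases CASP8 and CASP10, the TRAIL receptor TNFRSF10A and the decoy receptor TNFRSF10D. No member was called lower by the exact test, the quasi-likelihood test or DESeq2, while 2 were lower at an unadjusted p under 0.05. The count fell to 3 without NC replicate 1, and rose to 10 with plain library totals, to 10 with a limit of 1 CPM on the mean and to 11 with dispersions from the 2 groups. The median log2 fold change was 0.04 over the members and 0.00 over all genes.

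Peonidin-3-O-glucoside lowered 7 of 36 members, where 14.6% of all genes tested were called, with 5.98% higher and 8.6% lower. These were TNFSF10, BCL2L1, the BH3-only genes PMAIP1, BMF and BCL2L11, the caspase 8 brake CFLAR and the adaptor FADD. No member was called higher by the exact test, the quasi-likelihood test or DESeq2, while 2 were higher at an unadjusted p under 0.05. With dispersions from POG and the negative control 9 members were called, 1 higher (BIK) and 8 lower. With DEG 3 of 36 members were lower (TNFSF10, BMF and CFLAR), where 9.64% of all genes tested were called, with 3.52% higher and 6.11% lower. None was called higher with DEG by these 3 tests, and 1 was higher at an unadjusted p under 0.05. The median over the members was 0.01 with either compound. With DEG the count fell to 0 without DEG replicate 2, to 1 without NC replicate 2 and to 1 without DEG replicate 1, and it was 5 with dispersions from DEG and the negative control. These comparisons share the 2 negative control libraries.

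**Figure D2:**
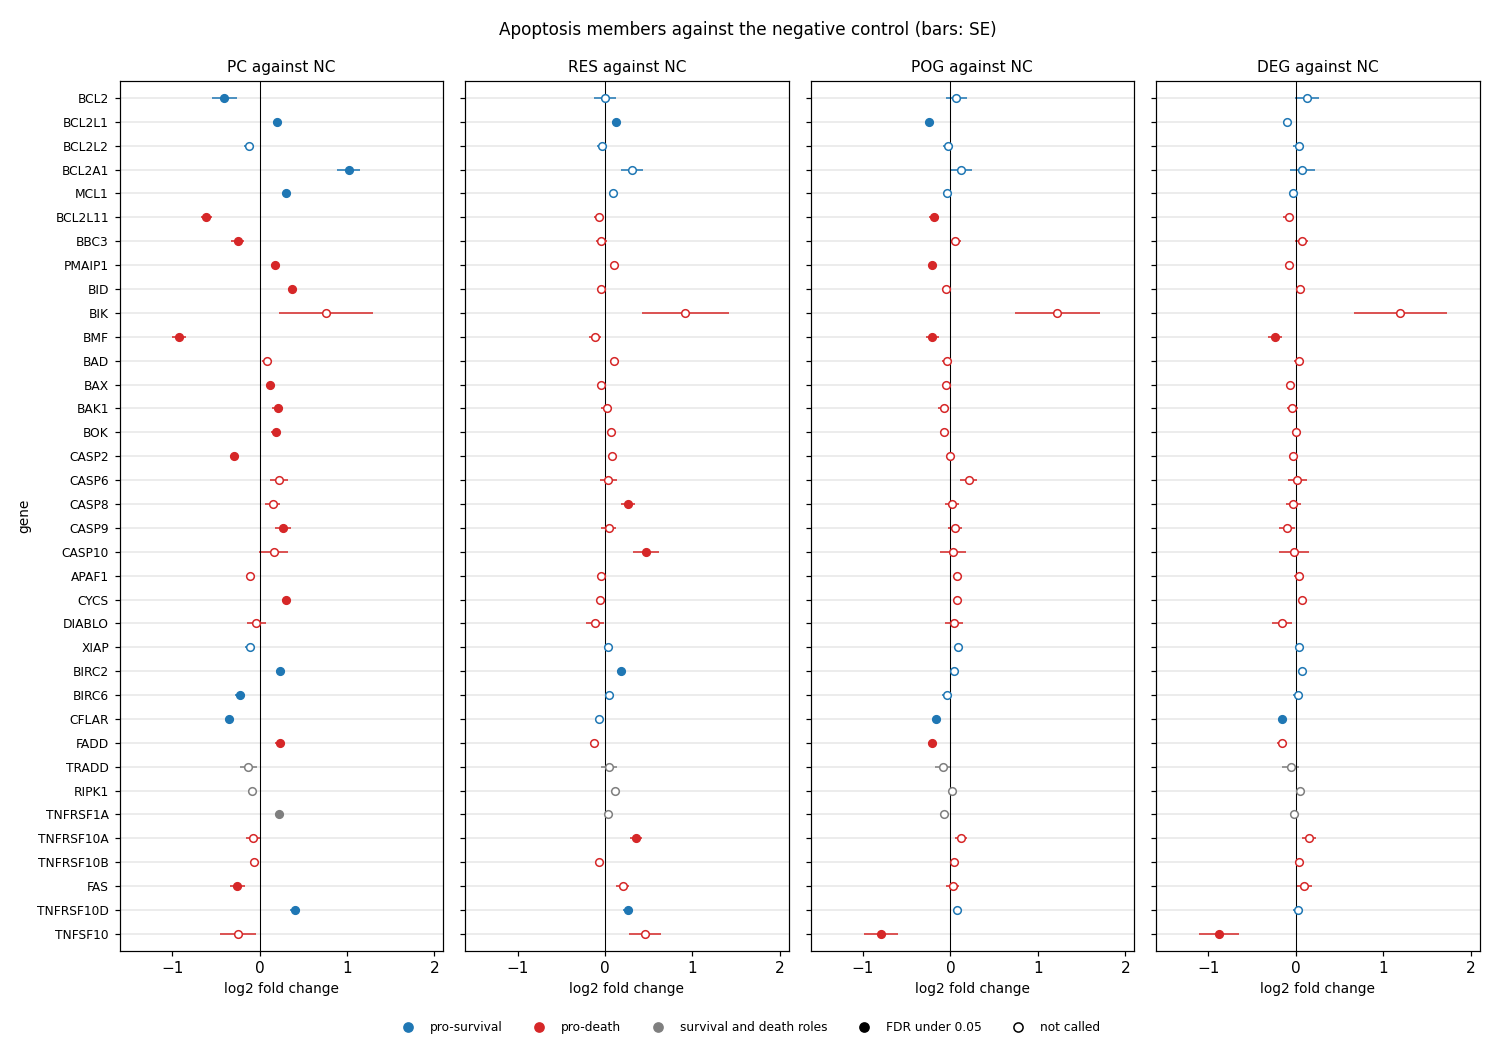
Log2 fold change of each member against the negative control in 4 panels (PC, RES, POG and DEG), with bars of 1 standard error; colours give the side and filled points an FDR under 0.05. Filled points with serum run from BMF at −0.92 to BCL2A1 at 1.02, while filled points with RES lie to the right of 0 and with POG and DEG to the left. The unfilled point of BIK lies at 1.22 with POG and 1.19 with DEG.

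More members passed the test when POG or DEG was set against RES than against the negative control, and so did more of all genes tested. Against the negative control those shares were 14.6% with POG and 9.64% with DEG. RES has 3 libraries and the negative control 2, and the part of group size was not tested. Against RES, POG had 17 of 36 members called, 3 higher and 14 lower, where 27.9% of all genes tested were called (13.7% higher and 14.1% lower). The 14 lower members were BCL2L1, MCL1, PMAIP1, BAD, BOK, CASP8, CASP10, BIRC2, CFLAR, TNFRSF1A, TNFRSF10A, FAS, TNFRSF10D and TNFSF10, and the 3 higher ones CYCS, APAF1 and TNFRSF10B. The median log2 fold change was −0.09 over the members and 0.00 over all genes. DEG against RES had 11 members called, 2 higher and 9 lower, where 21.2% of all genes tested were called (10.4% higher and 10.9% lower). Without DEG replicate 1 there were 6 and without DEG replicate 2 there were 7. These 2 comparisons share the RES libraries.

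Between DEG and POG no member was called by the exact test, the quasi-likelihood test or DESeq2, where 1.07% of all genes tested were called (0.573% higher and 0.497% lower). At an unadjusted p under 0.05 there were 3 members, and the lowest FDR was 0.0701 (BCL2L1). The intervals limit the difference: for the 29 members at 10 CPM or more in both groups, the 95% bounds of the log2 fold change ran from −0.39 (CASP6) to 0.22 (FAS). With dispersions taken from DEG and POG alone, BCL2L1 (0.14, FDR 0.00281) and PMAIP1 (0.12, FDR 0.000671) were higher with DEG.

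**Figure D3:**
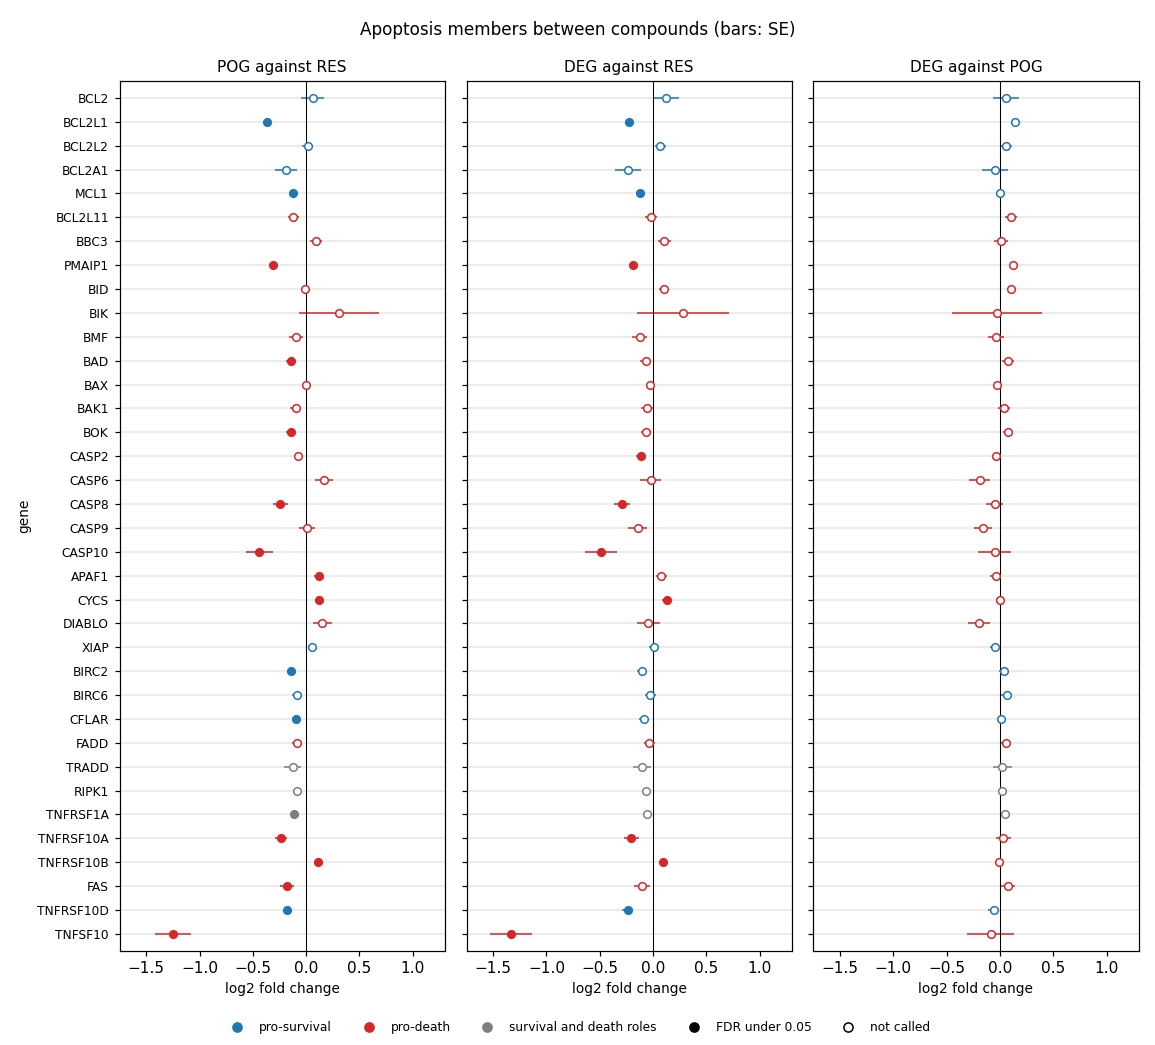
Log2 fold change of each member between compounds in 3 panels (POG against RES, DEG against RES, DEG against POG), with bars of 1 standard error; filled points have an FDR under 0.05. TNFSF10 lies farthest to the left against RES, at −1.25 for POG and −1.33 for DEG, and no point is filled in the panel of DEG against POG.

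Among the BCL2-type survival genes, BCL2L1, which encodes BCL-XL (ENSG00000171552.12, hg38 chr20:31664452-31723989), was called in 5 of the 7 comparisons. It stood at 95.7 and 96.5 CPM with serum and at 83.6 and 84.3 CPM in the negative controls. With RES it was at 88.4, 94.0 and 92.0 CPM, with POG at 73.4, 68.7 and 71.2 CPM, and with DEG at 78.5 and 78.0 CPM. The groups did not overlap: serum was highest, then RES, the negative control, DEG and POG. The log2 fold change was 0.19 with serum (SE 0.0422, edgeR FDR 7.11e-05), 0.12 with RES (SE 0.0388, FDR 0.0294) and −0.24 with POG (SE 0.0392, FDR 4.05e-07). Between the compounds it was −0.36 for POG against RES (SE 0.0347, FDR 4.18e-21) and −0.22 for DEG against RES (SE 0.0391, FDR 1.68e-06). The rise with RES was lost when single libraries were left out: its FDR was 0.242 without NC replicate 1, 0.153 without NC replicate 2, 0.155 without RES replicate 2 and 0.091 without RES replicate 3. With no filter on low counts and all libraries it was 0.0614. The falls with POG, against the negative control and against RES, were called under every alternative tried. Exons of BCL2L1 overlap the antisense gene ABALON.

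BCL2A1, a short-lived survival gene known as a target of NF-kB (ENSG00000140379.7, hg38 chr15:79960892-79971196), stood at 9.43 and 8.23 CPM with serum and at 4.49 and 4.25 CPM without it. This was the largest rise of a member, with a log2 fold change of 1.02 (SE 0.127, edgeR FDR 2.24e-14). The compound libraries lay between 4.24 and 5.79 CPM: 5.79, 4.90 and 5.56 with RES, 5.15, 4.38 and 4.73 with POG, and 4.24 and 4.96 with DEG. All 3 RES libraries were above both negative control libraries, yet the difference of 0.31 did not pass the test (FDR 0.0969), nor did 0.12 with POG (FDR 0.627) or 0.07 with DEG (FDR 0.862).

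MCL1, a survival gene with a short-lived product, was at 566 and 589 CPM with serum and at 473 and 466 CPM without it. It rose by 0.30 on the log2 scale (SE 0.0300, edgeR FDR 9.25e-16). RES libraries held 507, 503 and 486 CPM, all above the negative controls, but 0.09 missed the threshold (FDR 0.0597). This value was called under 6 alternatives, among them the quasi-likelihood test (FDR 0.0376) and DESeq2 (FDR 0.025). POG libraries were at 456, 461 and 454 CPM and DEG libraries at 457 and 458 CPM. Both lay below RES, by 0.13 for POG (FDR 0.000163) and 0.12 for DEG (FDR 0.00155) on the log2 scale.

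BCL2 itself moved against BCL2L1, BCL2A1 and MCL1 with serum. It was at 3.64 and 3.56 CPM with serum and at 4.91 and 4.63 CPM in the negative controls, so it was lower where cells were fed, with a log2 fold change of −0.40 (SE 0.141, edgeR FDR 0.0139). That call was lost without PC replicate 1 (FDR 0.0604), PC replicate 2 (FDR 0.0691) or NC replicate 1 (−0.36, FDR 0.107). The compound libraries were at 5.29, 4.49 and 4.55 CPM with RES, 4.71, 4.65 and 5.62 CPM with POG, and 5.09 and 5.32 CPM with DEG. They overlapped the negative controls with RES and POG, and the log2 fold changes were 0.00 (FDR 1), 0.07 (FDR 0.823) and 0.13 (FDR 0.696). Counts of BCL2 were 150 to 261 reads per library. BCL2L2, which encodes BCL-W, was called in none of the 7 comparisons and stayed between 41.3 and 49.2 CPM.

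The BH3-only genes, which encode the sensors of the family, split with serum. BMF, whose product is known to be freed from the actin cytoskeleton, was at 9.47 and 9.77 CPM with serum and at 17.4 and 19.0 CPM without it, a log2 fold change of −0.92 (SE 0.0835, edgeR FDR 1.23e-25). BCL2L11, which encodes BIM, fell from 34.5 and 31.2 CPM in the negative controls to 22.5 and 20.5 CPM with serum. Its log2 fold change was −0.61 (SE 0.0621, FDR 1.29e-20). BBC3, the p53 target also named PUMA, was at 23.8 and 20.1 CPM with serum and at 27.4 and 25.1 CPM without it (−0.25, SE 0.0706, FDR 0.00145). The call for BBC3 was lost without PC replicate 2 (−0.13, FDR 0.158) or NC replicate 1 (−0.19, FDR 0.0847). In the other direction BID, whose product links the death receptors to the mitochondrion, was at 89.5 and 84.1 CPM with serum and 66.2 and 68.0 CPM without it (0.37, SE 0.0462, FDR 2.59e-13). PMAIP1, also named NOXA, rose as well, from 135 and 139 CPM to 157 and 152 CPM (0.17, SE 0.0393, FDR 0.00019).

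With the anthocyanin POG, 3 BH3-only genes were lower than in the negative control: PMAIP1, BCL2L11 and BMF. PMAIP1 was at 120, 121 and 114 CPM, with a log2 fold change of −0.21 (SE 0.0362, edgeR FDR 5.1e-06) that was called under every alternative. RES libraries held 152, 143 and 145 CPM of PMAIP1 and DEG libraries 127 and 131 CPM, all POG libraries being below all others. Against RES, PMAIP1 was lower by 0.31 with POG (SE 0.0322, FDR 3.99e-17) and by 0.19 with DEG (SE 0.0363, FDR 3.9e-05) on the log2 scale, while 0.10 for RES against the negative control missed the threshold (FDR 0.0647). BCL2L11 was at 28.9, 29.2 and 28.5 CPM with POG (−0.19, SE 0.0550, FDR 0.0108). That call was lost without NC replicate 1 (−0.11, FDR 0.402) or POG replicate 3 (FDR 0.0504). BCL2L11 was at 31.6, 30.8 and 31.7 CPM with RES and 31.0 and 31.0 CPM with DEG, and neither passed the test (FDR 0.538 and 0.484). Exons of BCL2L11 overlap the opposite-strand gene MIR4435-2HG.

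BMF was at 15.1, 17.1 and 15.1 CPM with POG, 15.2 and 15.6 CPM with DEG and 16.4, 17.3 and 16.7 CPM with RES, all under the 17.4 and 19.0 CPM of the negative controls. The test called −0.21 with POG (SE 0.0718, edgeR FDR 0.036) and −0.24 with DEG (SE 0.0803, FDR 0.0361) but not −0.11 with RES (FDR 0.361). Both calls were near the threshold and were lost under 7 alternatives each. They included DESeq2 (FDR 0.0728 and 0.0776) and leaving out NC replicate 2, which moved the values to −0.14 (FDR 0.461) and −0.17 (FDR 0.418). POG replicate 1 or 3 and DEG replicate 1 or 2 also carried the calls, with FDR 0.158 and 0.156 without the former and 0.255 and 0.141 without the latter. Exons of BMF overlap its antisense gene BMF-AS1.

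The remaining BH3-only genes were BAD, BIK and HRK. BAD was lower with POG than with RES (−0.14, edgeR FDR 0.0122) and was called in no other comparison. That call was lost without RES replicate 1 (FDR 0.0806) or 2 (FDR 0.0681) and without POG replicate 1 (FDR 0.0723) or 2 (FDR 0.0603). BIK had 7 and 10 reads in the negative controls and 12 to 25 reads in the other libraries. Its fitted log2 fold changes of 0.92 with RES (FDR 0.283), 1.22 with POG (FDR 0.0677) and 1.19 with DEG (FDR 0.147) did not pass the test at these counts. With dispersions from POG and the negative control alone, BIK was called higher with POG (1.22, edgeR FDR 0.0451).

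The pore-forming effectors moved little. BAX was at 119 and 114 CPM with serum and 107 and 108 CPM without it, a log2 fold change of 0.12 (SE 0.0375, edgeR FDR 0.00719). This call was lost without NC replicate 1 (FDR 0.0715), with plain totals (FDR 0.0934) and with dispersions from the controls alone (FDR 0.137). BAK1 was at 28.8 and 27.3 CPM with serum and 24.1 and 24.6 CPM without it (0.21, SE 0.0641, FDR 0.00522), a call lost without PC replicate 1 (0.17, FDR 0.0704) or NC replicate 1 (0.19, FDR 0.0624). BOK rose with serum too (0.18, SE 0.0503, FDR 0.00176), a call lost without NC replicate 1 (FDR 0.0553), and was lower with POG than with RES (−0.14, FDR 0.00406), a call lost without RES replicate 2 (−0.10, FDR 0.089).

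In the treated cells BAX stayed between 102 and 105 CPM, with 104, 105 and 102 CPM for RES, 103, 104 and 104 CPM for POG, and 102 and 102 CPM for DEG. BAK1 was at 23.8, 24.7 and 25.4 CPM for RES, 22.1, 23.9 and 23.2 CPM for POG, and 24.5 and 22.9 CPM for DEG. Neither effector was called against the negative control with any compound, and the log2 fold changes were −0.05, −0.05 and −0.07 for BAX and 0.02, −0.08 and −0.04 for BAK1.

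Ratios of reads within a library set a death gene against a survival gene without any scaling between libraries, and are given as description only. BAX to BCL2 was 32.4-fold with serum (log2 ratios of 5.03 and 5.01) and 22.5-fold in the negative controls (4.44 and 4.54). With RES the log2 ratios were 4.30, 4.54 and 4.49, with POG 4.46, 4.48 and 4.21, and with DEG 4.32 and 4.27. The serum-fed libraries were above all others, with BAX higher and BCL2 lower there. Both DEG libraries were below both negative controls, while RES and POG overlapped the control. BCL2L11 to BCL2L1 was 0.223-fold with serum (log2 ratios of −2.09 and −2.23) and 0.391-fold without it (−1.28 and −1.43). It was lower than in the negative control in all 3 RES libraries (−1.48, −1.61 and −1.54), while POG (−1.34, −1.23 and −1.32) and DEG (−1.34 and −1.33) overlapped the control. With POG both genes of this ratio were lower.

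**Figure D4:**
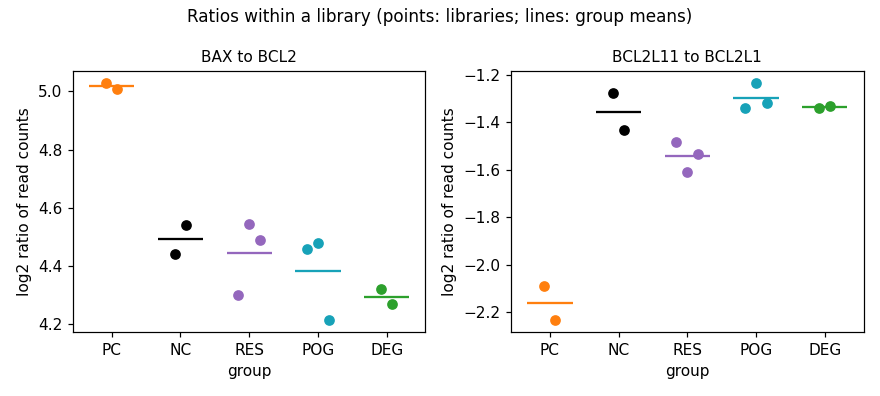
Log2 ratios of read counts within a library for BAX to BCL2 (left) and BCL2L11 to BCL2L1 (right) in the 5 groups; points are libraries and lines group means. Serum-fed libraries lie apart in both panels, at 5.01 to 5.03 on the left and −2.23 to −2.09 on the right.

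Of the 5 caspases, CASP8 and CASP10, the initiators that death receptors recruit, moved with resveratrol. CASP8 was at 20.8, 18.3 and 19.8 CPM with RES and at 17.2 and 15.5 CPM in the negative controls. POG libraries held 17.5, 15.5 and 16.8 CPM, DEG libraries 14.6 and 17.5 CPM, and serum-fed libraries 18.0 and 18.3 CPM. The RES libraries were above all POG and DEG libraries. The log2 fold change with RES was 0.26 against the control (SE 0.0787, edgeR FDR 0.0135), and against RES it was −0.24 with POG (SE 0.0686, FDR 0.00308) and −0.29 with DEG (SE 0.0790, FDR 0.00241). The rise against the control was lost without NC replicate 2 (0.19, FDR 0.318), RES replicate 1 (0.22, FDR 0.102) or RES replicate 3 (FDR 0.0508), and the difference from DEG without DEG replicate 1 (−0.17, FDR 0.3). The difference from POG was called under every alternative. CASP8 shares exon sequence on its own strand with the gene model ENSG00000289698.

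CASP10, which lies beside CASP8 at hg38 chr2:201182872-201229428, was at 4.51, 4.69 and 4.46 CPM with RES and at 2.79 and 3.77 CPM in the negative controls. POG libraries held 3.46, 3.52 and 3.098 CPM, DEG libraries 2.76 and 3.71 CPM, and serum-fed libraries 3.66 and 3.67 CPM. Every RES library exceeded every other library. The log2 fold change with RES was 0.47 (SE 0.147, edgeR FDR 0.0172), and it was lost without NC replicate 1 (0.27, FDR 0.477) or RES replicate 2 (FDR 0.0599). Against RES it was −0.44 with POG (SE 0.127, FDR 0.00284), called under every alternative, and −0.49 with DEG (SE 0.148, FDR 0.00599), lost without DEG replicate 1 (−0.29, FDR 0.321).

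CASP9, the caspase started on the apoptosome, was at 11.4 and 11.9 CPM with serum and 10.0 and 9.33 CPM without it (0.26, SE 0.0896, edgeR FDR 0.0107). The call was lost without PC replicate 2 (FDR 0.0667) or NC replicate 2 (0.22, FDR 0.13). In treated cells CASP9 was at 9.96, 9.52 and 10.4 CPM with RES, 10.2, 9.89 and 10.0 CPM with POG, and 9.20 and 8.83 CPM with DEG. No compound moved it past the test, with log2 fold changes of 0.04, 0.05 and −0.10 (FDR 0.863, 0.801 and 0.615). Exons of CASP9 overlap CELA2B on the other strand.

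CASP2, an initiator linked to stress and DNA damage, was at 58.7 and 55.9 CPM with serum and 70.1 and 70.6 CPM without it (−0.29, SE 0.0457, edgeR FDR 7.66e-09). Against RES it was lower with DEG (−0.11, FDR 0.0407), a call lost without any single library of either group (FDR 0.0598 to 0.207), with no filter (FDR 0.0836) and in DESeq2 (FDR 0.0605). CASP6, an executioner, was called in none of the 7 comparisons, with 9.18 to 13.03 CPM.

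Of the factors around the apoptosome, CYCS, which encodes cytochrome c, rose with serum from 75.1 and 75.8 CPM to 94.98 and 90.8 CPM (0.30, SE 0.0424, edgeR FDR 2.68e-10). It was also higher than with RES by 0.12 with POG (FDR 0.00456) and 0.13 with DEG (FDR 0.0157), from 73.8, 73.0 and 71.4 CPM with RES to 81.3, 78.5 and 78.1 CPM with POG and 77.6 and 81.2 CPM with DEG. The difference with POG was lost only without POG replicate 1 (FDR 0.0544). That with DEG was lost without RES replicate 3 (FDR 0.0783), without DEG replicate 2 (log2 fold change 0.09) and with no filter (FDR 0.0522). APAF1, the apoptosome scaffold, was higher with POG than with RES (0.12, FDR 0.04), near the threshold and lost without any RES library (FDR 0.0666 to 0.143) or without POG replicate 1 (0.09, FDR 0.198) or 2 (FDR 0.0905). It was also lost with plain totals (FDR 0.0507), with no filter (FDR 0.0501) and in DESeq2 (FDR 0.0646). DIABLO, which encodes the mitochondrial factor that blocks inhibitors of apoptosis, was called in none of the 7 comparisons.

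Inhibitors of apoptosis bind caspases or signalling complexes. BIRC2, also named cIAP1, rose with serum (0.24, SE 0.0477, edgeR FDR 1.06e-05) and with RES (0.18, SE 0.0439, FDR 0.00221), and was lower with POG than with RES (−0.14, FDR 0.00296). RES libraries held 93.4, 87.3 and 82.9 CPM against 76.3 and 78.8 CPM in the negative controls. The rise with RES was lost without NC replicate 1 (FDR 0.124) or RES replicate 1 (0.13, FDR 0.0559), and the difference from POG without RES replicate 1 (−0.10, FDR 0.0871) or POG replicate 2 (FDR 0.0521). BIRC6, a giant ubiquitin ligase, was lower with serum (−0.23, SE 0.0579, FDR 0.000812), but its serum-fed libraries were apart, at 132 and 169 CPM, against 175 and 177 CPM in the negative controls. Without PC replicate 1 the value was −0.05 (FDR 0.269). XIAP, the direct inhibitor of caspases, was called in none of the 7 comparisons.

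In the death receptor route the ligand gene TNFSF10, which encodes TRAIL (ENSG00000121858.10, hg38 chr3:172505508-172523475), had the largest called log2 fold changes with POG and with DEG. It was at 2.63 and 3.17 CPM in the negative controls and at 2.79 and 2.09 CPM with serum. RES libraries held 3.95, 4.09 and 3.90 CPM, POG libraries 1.27, 2.25 and 1.53 CPM, and DEG libraries 1.70 and 1.45 CPM. All RES libraries were above and all POG and DEG libraries below the negative controls. The log2 fold change was −0.79 with POG (SE 0.197, edgeR FDR 0.000776) and −0.88 with DEG (SE 0.225, FDR 0.00157), while 0.46 with RES (FDR 0.0814) and −0.24 with serum (FDR 0.37) did not pass. The direct comparisons were the clearest, at −1.25 for POG against RES (SE 0.169, FDR 2.45e-12) and −1.33 for DEG against RES (SE 0.200, FDR 5.3e-10), both called under every alternative.

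These levels of TNFSF10 rested on 57 to 183 reads per library. The falls against the negative control were lost without NC replicate 2 (−0.65 with POG, FDR 0.0962, and −0.74 with DEG, FDR 0.1), and with DEG also without DEG replicate 2 (−0.77, FDR 0.0906). Summed markers of endothelial and of blood cells were lower with POG and DEG than in the negative controls, at trace levels. With RES the blood cell sum was higher, and the endothelial sum overlapped the control. The 3 endothelial markers summed to 2.89 to 2.97 CPM in the negative controls, 2.92 to 3.25 with RES, 1.33 to 2.18 with POG and 2.09 to 2.30 with DEG. The 3 blood cell markers summed to 0.878 to 0.955, 1.099 to 1.28, 0.295 to 0.732 and 0.646 to 0.789 CPM. Single markers did not all follow the sums. PECAM1 and CD14 made up most of the endothelial and the blood cell sum, and both were lower with POG and DEG. CD14 was at 0.878 and 0.955 CPM in the negative controls, 0.577, 0.272 and 0.732 with POG, and 0.646 and 0.738 with DEG. KDR was at 0.775 and 0.814 CPM with DEG, 0.799, 0.295 and 0.258 with POG, and 0.646 and 0.629 in the negative controls. CD3E had no read in any library. CDH5 and PTPRC had none in 5 libraries each, both negative controls among them. Both genes had reads in POG replicates 1 and 2, and CDH5 in DEG replicate 1 and PTPRC in DEG replicate 2. The part of these markers in the result was not tested.

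**Figure D5:**
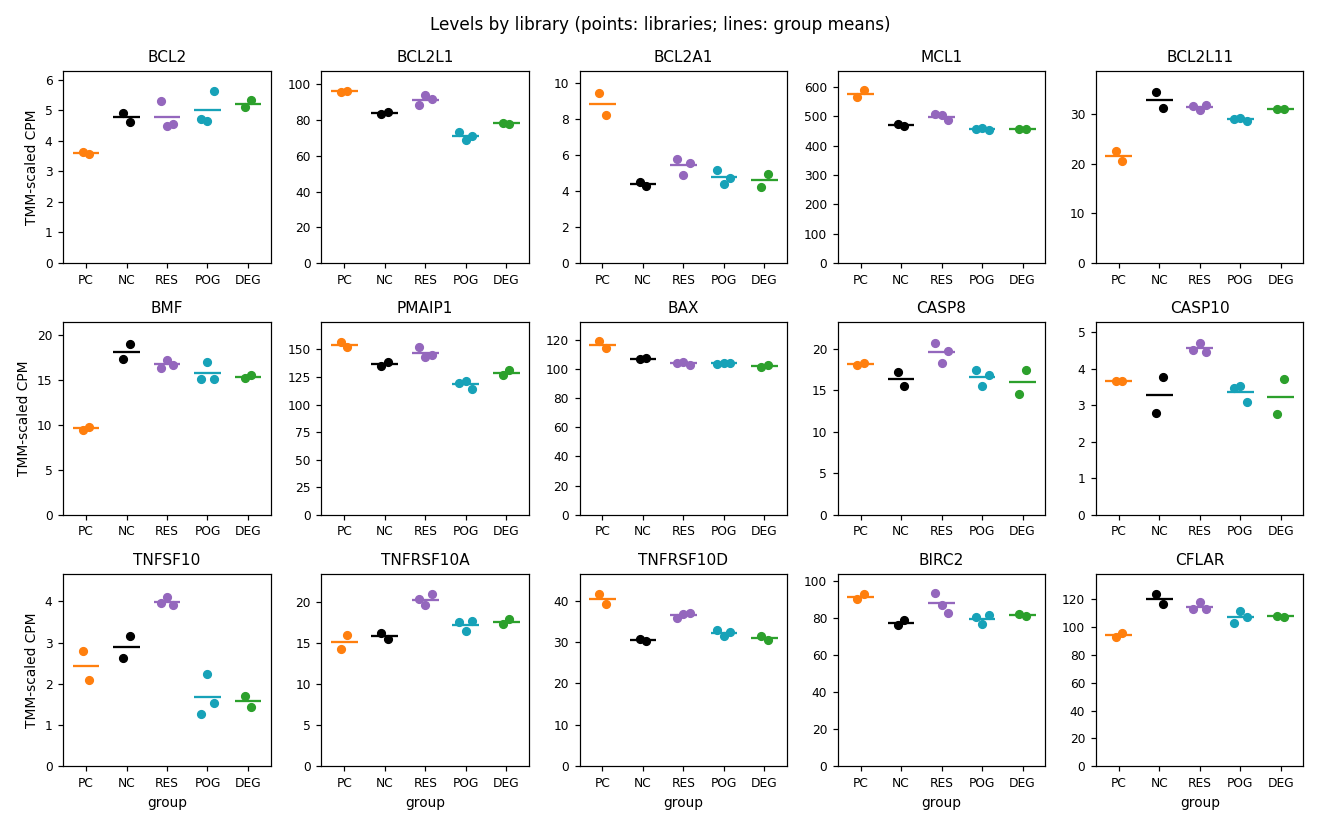
CPM in each of the 12 libraries for members named most often in the text, by group, with points for libraries and lines for group means. TNFSF10 lies at 3.90 to 4.09 CPM with RES and at 1.27 to 2.25 CPM with POG and DEG, and BCL2A1 stands apart with serum at 8.23 to 9.43 CPM.

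The receptors for TRAIL did not move as one. TNFRSF10A, a signalling receptor, was at 20.3, 19.6 and 20.9 CPM with RES and at 16.2 and 15.5 CPM in the negative controls, 0.35 higher on the log2 scale (SE 0.0691, edgeR FDR 1.98e-05). POG libraries held 17.5, 16.5 and 17.7 CPM, DEG libraries 17.3 and 17.9 CPM, and serum-fed libraries 14.2 and 15.98 CPM. Every RES library was above every other, and the rise with RES was called under every alternative. Against RES it was lower with POG (−0.24, SE 0.0597, FDR 0.000745) and with DEG (−0.20, SE 0.0682, FDR 0.0193), the latter lost without RES replicate 3 (FDR 0.0839), DEG replicate 1 (FDR 0.213) or DEG replicate 2 (FDR 0.0777).

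TNFRSF10D, a decoy receptor that binds TRAIL without passing on a full death signal, rose with serum and with RES. It was at 41.6 and 39.1 CPM with serum, 30.7 and 30.3 CPM in the negative controls, and 35.7, 36.7 and 37.04 CPM with RES. The log2 fold changes were 0.40 (SE 0.0545, edgeR FDR 7.88e-12) and 0.26 (SE 0.0507, FDR 3.49e-05), and both were called under every alternative. With POG it was at 32.96, 31.5 and 32.4 CPM and with DEG at 31.5 and 30.5 CPM, lower than with RES by 0.18 (FDR 0.000716) and 0.24 (FDR 9.3e-05). TNFRSF10B, the most abundant TRAIL receptor at 259 to 287 CPM, was higher than with RES by 0.11 with POG (FDR 0.00158) and 0.10 with DEG (FDR 0.0196), so it differed in the opposite direction to TNFRSF10A and TNFRSF10D. The call for DEG was lost without RES replicate 2 (FDR 0.103), DEG replicate 1 (FDR 0.174) or DEG replicate 2 (FDR 0.124), and with no filter (FDR 0.09).

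FAS, the receptor for Fas ligand, was at 13.2 and 11.7 CPM with serum and 14.6 and 15.1 CPM without it (−0.25, SE 0.0828, edgeR FDR 0.0071), a call lost without PC replicate 2 (−0.17, FDR 0.175) or NC replicate 2 (FDR 0.0862). RES libraries held 17.3, 16.6 and 17.5 CPM, POG libraries 15.2, 15.9 and 14.3 CPM, and DEG libraries 15.3 and 16.5 CPM. The rise of 0.20 with RES missed the threshold (FDR 0.0554), and POG was lower than RES by 0.18 (FDR 0.026). That difference was lost without RES replicate 1 (FDR 0.078), RES replicate 3 (FDR 0.102), POG replicate 1 (FDR 0.0682) or POG replicate 3 (−0.14, FDR 0.167), with no filter (FDR 0.053) and in DESeq2 (FDR 0.0589). Exons of FAS overlap STAMBPL1 and ACTA2. TNFRSF1A, a receptor for tumor necrosis factor, rose with serum (0.22, SE 0.0381, FDR 8.98e-07) and was lower with POG than with RES (−0.11, FDR 0.00619).

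Below the receptors, CFLAR encodes cFLIP, which holds caspase 8 in check. It was at 92.9 and 95.6 CPM with serum and at 124 and 116 CPM in the negative controls, so this survival gene fell with serum (−0.35, SE 0.0427, edgeR FDR 5.31e-13). CFLAR was at 113, 118 and 113 CPM with RES, 103, 111 and 107 CPM with POG, and 108 and 107 CPM with DEG. The falls were −0.16 with POG (SE 0.0386, FDR 0.00142) and −0.16 with DEG (SE 0.0427, FDR 0.0117), and −0.07 with RES missed the threshold (FDR 0.354). The call with POG was lost without NC replicate 1 (−0.12, FDR 0.184), and that with DEG without NC replicate 1 (−0.11, FDR 0.332), DEG replicate 1 (FDR 0.109) or DEG replicate 2 (FDR 0.126). POG was also below RES (−0.10, FDR 0.0332), lost without RES replicate 2 (−0.07, FDR 0.206), POG replicate 1 (−0.07, FDR 0.238) or POG replicate 3 (FDR 0.0922), and with no filter (FDR 0.0675).

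FADD, the adaptor that brings caspase 8 to the receptor, moved against its negative control level in opposite directions. It rose with serum (0.23, SE 0.0528, edgeR FDR 0.000123) and fell with POG (−0.21, SE 0.0494, FDR 0.000769), from 41.7 and 40.7 CPM to 34.7, 35.0 and 37.2 CPM, and the latter was called under every alternative. RES (37.7, 38.2 and 37.8 CPM) and DEG (36.0 and 38.01 CPM) were below the negative controls too, with log2 fold changes of −0.12 (FDR 0.112) and −0.16 (FDR 0.0604) that missed the threshold. The adaptors TRADD and RIPK1 were called in none of the 7 comparisons.

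A wider list of 48 other genes of cell death, of which 42 passed the filter, gave the surroundings of the members. With serum 14 of these were higher and 7 lower, where 42.4% of all genes tested were called (21.5% higher and 20.9% lower). The largest rises were BNIP3, a mitochondrial gene of hypoxia and mitophagy (0.55, edgeR FDR 3.04e-27), TNFRSF12A, the receptor for TWEAK (0.38, FDR 3.22e-14), and ENDOG, a mitochondrial nuclease (0.36, FDR 0.000433). The largest falls were BCL2L10 (−1.29, FDR 0.00183, at 0.213 to 0.981 CPM in the controls), SEPTIN4 (−1.04, FDR 6.62e-16) and TRAF1, a signalling adaptor (−0.55, FDR 7.39e-11). The calls of ENDOG (without NC replicate 1, FDR 0.059) and BCL2L10 (without PC replicate 2, −0.86, FDR 0.13, or NC replicate 2, FDR 0.0696) each needed 1 library.

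With RES 4 genes of the wider list were higher and 3 lower, where 11.2% of all genes tested were called (4.94% higher and 6.25% lower). The 3 that were lower with RES are counted but not named. With POG the counts were 3 and 2, where 14.6% of all genes were called (5.98% higher and 8.6% lower). With DEG they were 2 and 1, where 9.64% were called (3.52% higher and 6.11% lower). BIRC3, which encodes cIAP2 and was among the largest rises with POG and DEG, was higher with each compound: it was at 35.7 and 37.5 CPM in the negative controls and at 40.5 to 44.4 CPM in the 8 treated libraries. Its log2 fold change was 0.22 with POG (edgeR FDR 0.000186) and 0.25 with DEG (FDR 0.000113), and 0.16 with RES (FDR 0.0187) was lost without NC replicate 1 (FDR 0.323) or RES replicate 1 (FDR 0.0684). TNFRSF21, a death receptor also named DR6, was lower with POG (−0.39, FDR 1.27e-06) and DEG (−0.39, FDR 3.34e-05). TNFRSF1B, the other receptor for tumor necrosis factor, was higher with RES (0.26, FDR 1.96e-07).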

How the data were processed

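Messenger RNA of hFOB 1.19 cells was sequenced as read pairs. The values the authors deposited are raw counts of reads on genes in 1 table with no scaling, made per their methods with FastQC, STAR (BWA MEM was also named) and featureCounts on build hg38. Program versions, annotation release, strand setting and the treatment of multi-mapped reads are not given in the sources used here.

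Counts were tested with edgeR 4.0.16 in R 4.3.3: TMM scaling, filterByExpr by group (17092 of 43836 genes), dispersions over all 12 libraries, the exact test, and Benjamini-Hochberg adjustment over all genes tested, with calls at an FDR under 0.05. The variation between libraries beyond counting error (edgeR's common coefficient) was 3.20%. Errors and 95% intervals came from edgeR's quasi-likelihood fit. Levels in CPM used the deposited counts and TMM totals. Exon overlaps and lengths came from GENCODE v44, and upstream sequences from the RefSeq table for GRCh38.p14.

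The members and lists were chosen with earlier results of these data known. Values in every library are given for members called with an absolute log2 fold change of at least 0.25 and for 9 fixed members (BCL2, BCL2L1, BCL2A1, MCL1, BCL2L11, BAX, BAK1, CASP8 and CASP9). Of the wider list, up to 3 genes each way were eligible to be named. A gene of that list that the rule chose is not reported here by name and stays in the counts. Alternatives were the quasi-likelihood test, DESeq2 1.42.0, DESeq2 size factors, plain totals, no filter, a limit of 1 CPM on the mean, dispersions of the compared groups, and each library left out. Replicate numbers followed accession order and served as names. DEG replicate 3 was not analysed here.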

Additional observations from a re-analysis of the deposited data

Results flagged for a closer look

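BCL2L1, the gene of BCL-XL, was called higher with RES and lower with POG against the same negative control, by edgeR's exact test. The difference between the compounds was tested directly, and POG stood at −0.36 on the log2 scale against RES (FDR 4.18e-21), with all 3 POG libraries below all 3 RES libraries. The rise with RES alone was lost on leaving out any 1 of 4 libraries and with no filter on low counts, while the difference between the compounds was called under every alternative.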

How the results depend on the processing

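Across 2976 values of a member in a comparison under an alternative, 2835 stayed on their side of the threshold, 96 called values were lost, 45 uncalled values were gained, and 0 called values changed sign. Most of the 2976 belong to values that were not called as reported, so the 2835 are no measure of how stable the calls were. The count of members called with RES rose from 6 to 10 with plain library totals, 10 with a limit of 1 CPM on the mean, and 11 with dispersions from RES and the negative control. Dispersions from the groups compared gave 9 members with POG in place of 7, 1 of them higher. They gave 5 with DEG in place of 3, and 2 between DEG and POG in place of 0. With 1 library left out, the counts ran from 17 to 22 (serum), 3 to 5 (RES), 5 to 7 (POG), 0 to 2 (DEG), 12 to 16 (POG against RES), 6 to 10 (DEG against RES) and 0 to 0 (DEG against POG). The cause of these differences was not tested. Plain totals moved the share of higher calls among all genes from 50.6% to 41.0% with serum, 44.1% to 64.0% with RES, 41.0% to 56.0% with POG and 36.6% to 49.4% with DEG. The members' split went to 13 higher and 13 lower with serum and to 10 and 0 with RES. With POG it went to 0 and 6, and with DEG to 0 and 2. Adding 0.5 reads moved no ratio by more than its spread. No paired analysis was possible because the labels give no replicate numbers. Depth limits HRK, BIK and TNFSF10 most.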
